A study of Mus musculus with 32 samples.

Results

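The comparison described here asked whether one and the same ENL mutation altered gene expression differently in 2 cell lineages of the embryonic mouse kidney. It took 14 of the 32 libraries of the series, which were all the E18.5 libraries made from sorted cells: 8 of the Foxd1 lineage and 6 of the Six2 lineage. The groups were 4 Foxd1-ENLT1 and 4 Foxd1 ENLWT libraries, and 3 Six2-ENLT1 and 3 Six2 ENLWT libraries. The quantity of interest was the difference between the 2 T1 effects, that is the log2 fold change of T1 over WT in Foxd1-lineage cells minus the log2 fold change of T1 over WT in Six2-lineage cells. A positive difference means that the mutation raised a gene more, or lowered it less, in the Foxd1 lineage. The level of a gene in one lineage against the other is not a result here.

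All 14 libraries came from kidney cells that carried a Cre driver and the LSL-tdT reporter and were sorted as tdT+ cells. The T1 allele, Enl T1, is a conditional knock-in into Mllt1, the gene that encodes ENL, and adds a short in-frame insertion found in Wilms tumour to the YEATS domain. Mutant animals were heterozygous for it (Enl T1/+), and the ENLWT controls had the genotype Enl +/+ with the same Cre. Six2-TGC tg/+ is a BAC transgene that expresses a GFP-Cre fusion from the Six2 promoter, so the label marks nephron progenitors and the podocyte and tubule cells that descend from them. Foxd1 GC/+ is a knock-in that abolishes 1 copy of Foxd1, in mutants and controls alike, and marks stromal progenitors and their interstitial, mesangial and pericyte descendants. The 2 lineages were sequenced in separate runs with different read lengths and to different depths, so a difference between lineages and a difference between runs cannot be told apart. Nothing in the labels ties a library to an embryo, and the p-values measure only the spread between these samples, which may be technical.

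ENL binds acylated histone tails through its YEATS domain and brings in the complexes that release paused RNA polymerase, and Hox genes are among its best known targets. Hox genes encode homeodomain factors and sit in 4 clusters, in which genes of low paralog number lie toward one end and genes of high paralog number toward the other. In the developing kidney, Six2+ cap mesenchyme self-renews or turns into the epithelium of the nephron, and Foxd1+ stroma around it supplies signals, matrix and the later mesangial cells and pericytes.

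The promoters of a pair of Hoxd genes are shown because these genes lie close together and differed between the lineages in opposite directions. They are the 250 bases before the start that RefSeq annotates, 5′ to 3′, on GRCm38.p6, with each CG dinucleotide in capitals, the sequence feature that the search looked for on both strands at once since CG is its own complement.
Hoxd10, chr2:74691641-74691890, plus strand: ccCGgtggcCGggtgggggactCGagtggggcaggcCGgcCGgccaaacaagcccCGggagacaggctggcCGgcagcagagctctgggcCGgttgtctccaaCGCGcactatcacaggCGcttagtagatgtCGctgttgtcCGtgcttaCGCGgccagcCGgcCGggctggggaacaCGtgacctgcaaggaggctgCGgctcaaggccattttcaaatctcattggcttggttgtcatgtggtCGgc
Hoxd12, chr2:74674763-74675012, plus strand: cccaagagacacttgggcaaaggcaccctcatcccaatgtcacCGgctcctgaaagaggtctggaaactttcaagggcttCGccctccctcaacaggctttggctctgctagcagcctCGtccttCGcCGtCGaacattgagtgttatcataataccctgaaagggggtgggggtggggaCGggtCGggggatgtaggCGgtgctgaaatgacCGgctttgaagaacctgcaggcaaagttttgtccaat
The Hoxd10 promoter held 20 CG dinucleotides, a number that 17.9% of the 32851 promoters in the table reached, and the Hoxd12 promoter held 10, which 37.8% reached. Over all promoters 92.1% held at least 1 and the median was 6. The counts describe these windows only.

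Sequencing depth differed between the lineages. Foxd1-lineage libraries held 2555949 to 3506276 counted reads and Six2-lineage libraries 76480661 to 91988765. A count of 3 corresponded to 0.869 to 1.26 CPM (counts scaled to the library total) in the first and to 0.0298–0.0385 CPM in the second, so genes at low level in the stroma carry the wider error. The median half-width of the 95% interval was 0.307 log2 units for the Foxd1 effect, 0.229 for the Six2 effect and 0.389 for their difference. Y-linked genes summed to 156–194 CPM in the Foxd1 libraries, which held almost no Xist reads, and to 316 and 278 CPM in the first ENLWT and first T1 library of the Six2 lineage, whereas the other 4 Six2 libraries held 454–589 CPM of Xist. Of these 4, the 2 Six2-ENLT1 libraries also held 78.2 and 32.0 CPM of Y-linked reads, against 10.05 and 9.52 CPM in the 2 Six2 ENLWT libraries. A fit without the first ENLWT and first T1 library of the Six2 lineage, added after the data were seen, gave 1169 genes higher and 1242 lower in place of the 1226 and 1135 below.

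Mllt1 itself (ENSMUSG00000024212, chromosome 17 from 56892611 to 56935415 on the minus strand) was checked first. It stood at 28.1, 39.4, 36.5 and 47 CPM in Foxd1 ENLWT and 32.7, 39.3, 30.7 and 34.1 CPM in Foxd1-ENLT1 libraries. In Six2-lineage cells it stood at 76.6, 76.4 and 84.2 CPM in ENLWT and 75, 81.5 and 80.3 CPM in T1 libraries. Mutant and wild-type levels overlapped in both lineages, and the difference of effects was -0.12 (SE 0.16, adjusted p = 0.681). The knock-in keeps the endogenous promoter and gene counts cannot separate mutant from wild-type transcripts, so Mllt1 levels do not check the genotype labels. The lineage labels were set against marker lists in the controls. Stromal matrix genes summed to 14613–19194 CPM in Foxd1 ENLWT and 7943–8341 CPM in Six2 ENLWT libraries, and pericyte genes to 2861–3418 and 382–426 CPM. Podocyte genes summed to 3340–4152 and 4455–4983 CPM, and proximal tubule genes to 243–642 and 1658–2199 CPM. Each sort was richer in the markers of its own lineage and also held reads of the other lineage's markers, whose source was not tested.

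The T1 effect differed between the lineages at 2361 of 14869 genes tested (15.9%; edgeR quasi-likelihood test of the lineage by genotype interaction, Benjamini-Hochberg adjusted p under 0.05). The effect was higher in the Foxd1 lineage at 1226 genes (8.25% of genes tested) and lower at 1135 genes (7.63%). Of these, 896 and 794 genes had effects more than 1.5 fold apart. When libraries were scaled by their totals alone, the split moved to 936 higher and 1555 lower, and the higher share of calls went from 51.9% to 37.6%, while the median difference over all genes moved from -0.01 to -0.09. Within the Foxd1 lineage alone, 498 genes (3.35%) were upregulated and 301 (2.02%) downregulated in T1 cells at an adjusted p under 0.05 and more than 1.5 fold. Within the Six2 lineage, 1072 genes (7.21%) were upregulated and 935 (6.29%) downregulated. In what follows a gene is called higher or lower for short when its T1 effect was higher or lower in the Foxd1 lineage by this test, and a value in parentheses after a gene is the difference on the log2 scale. The shares over all genes tested, 8.25% higher and 7.63% lower, are the background for every list count that follows.

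More of the called differences came with a called effect in the Six2 lineage than in the Foxd1 lineage. With all libraries thinned to equal reads, the Six2 effect was still called at more genes, 687 up and 673 down, than the Foxd1 effect, 470 up and 297 down. Among the 2361 genes, 909 had a called effect in the Six2 lineage and none in the Foxd1 lineage: 472 of them were downregulated in Six2-ENLT1 cells and 437 upregulated. A further 303 had a called effect in the Foxd1 lineage only, of which 181 were upregulated and 122 downregulated. At 76 genes both lineages moved the same way by different amounts, and at 102 genes they moved in opposite directions, 42 up in Foxd1-ENLT1 and down in Six2-ENLT1 and 60 the reverse. At the remaining 971 genes neither effect passed on its own.

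**Figure D1:**
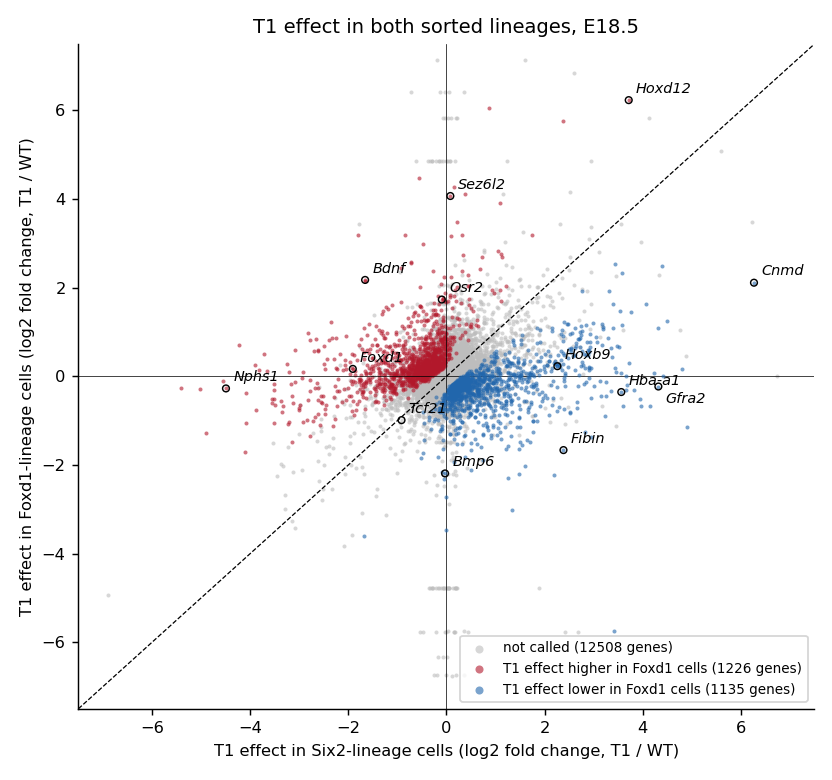
Each point is 1 of the 14869 genes tested. The x axis gives the T1 effect in Six2-lineage cells and the y axis the T1 effect in Foxd1-lineage cells, both as log2 fold change of T1 over WT. The dashed line marks equal effects, and 2 genes lie outside the axes. Genes whose effect was higher in the Foxd1 lineage (1226, red) lie above the line and those lower (1135, blue) below it. Hoxd12, Osr2 and Sez6l2 lie high on the y axis, Nphs1 and Foxd1 to the left, and Hba-a1, Gfra2 and Cnmd to the right.

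Nearly all Hox genes rose in Six2-lineage cells and fewer did so in Foxd1-lineage cells. Of 39 Hox genes 34 were tested, 33 were upregulated in Six2-ENLT1 and 17 in Foxd1-ENLT1 cells, and none was downregulated in either. The effect was lower in the Foxd1 lineage at 17 Hox genes and higher at 1, against 7.63% and 8.25% of all genes tested. The median T1 effect was 0.78 in the Foxd1 and 1.80 in the Six2 lineage, and the median difference -1.01, against -0.01 over all genes. Summed over the Hox genes, the level went from 930–991 CPM in Foxd1 ENLWT to 1794–1904 CPM in Foxd1-ENLT1 libraries. In the Six2 sort it went from 872–1024 CPM to 3498–3548 CPM. Within each lineage every mutant sum lay above every control sum. Hoxd1 had no count in any Foxd1 library and Hoxd4 none in any Six2 library. Over the 32 other Hox genes the medians were 0.78, 1.85 and -1.01. Hoxb1, Hoxb13, Hoxc12, Hoxc13 and Hoxd13 were too low to be tested.

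The 4 clusters differed in how far the stroma shared the response. In the Hoxa cluster 8 of 11 genes were upregulated in Foxd1-ENLT1 cells and 2 differed between lineages, with a median difference of -0.24. In the Hoxb cluster none of 8 genes was upregulated in Foxd1-ENLT1 cells by edgeR, 0 even at an unadjusted p under 0.05, and all 8 had a lower effect there, with median effects of 0.12 and 1.5. In the Hoxc cluster 6 of 7 genes were upregulated in Foxd1-ENLT1 cells and 3 were lower. In the Hoxd cluster 3 of 8 genes were upregulated, 4 differences were lower and 1 was higher. Both early and late paralogs differed: 9 of 22 genes of paralog groups 1 to 8 and 8 of 12 genes of groups 9 to 13 were lower.

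Hoxb9 (chromosome 11 from 96271457 to 96276595 on the plus strand) shows the Hoxb pattern. It stood at 19.4, 14.3, 12.6 and 15.9 CPM in Foxd1 ENLWT and 17.3, 19.8, 22.8 and 14.2 CPM in Foxd1-ENLT1 libraries, which overlap. In the nephron lineage it stood at 119, 119 and 117 CPM in ENLWT and 589, 515 and 598 CPM in T1 libraries, so that every mutant library lay above every control. The difference of effects was -2.03 (SE 0.18, adjusted p = 6.29e-08). Hoxb4 was at 10.7, 12.2, 11.7 and 9.85 CPM in Foxd1 ENLWT and 10.8, 11.8, 10.48 and 11.5 CPM in Foxd1-ENLT1 libraries, an effect of 0.00, while in the Six2 lineage it went from 25.9–30 to 79–99.4 CPM, an effect of 1.67. Differences at the other Hoxb genes were -1.48 for Hoxb2, -1.69 for Hoxb3, -1.02 for Hoxb5, -0.99 for Hoxb6, -1.35 for Hoxb7 and -1.22 for Hoxb8. Counting ignored strand, and 27.3% of the exon length of Hoxb2 and 52.9% of that of Hoxb3 overlap another gene, so these values are uncertain.

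Among the paralogs best known in kidney patterning, Hoxa11, Hoxc10, Hoxd10 and Hoxd11 were lower. Hoxa11 (chromosome 6 from 52242106 to 52245810 on the minus strand) stood at 104.8, 94, 81.8 and 86 CPM in Foxd1 ENLWT and 197, 181, 193 and 221 CPM in Foxd1-ENLT1 libraries. In the Six2 lineage it went from 15.7, 16.3 and 19.3 CPM in ENLWT to 155, 154 and 160.2 CPM in T1 libraries. Mutants lay above controls in both lineages, by 1.1 and 3.19 log2 units, and the difference was -2.09 (SE 0.13, adjusted p = 3.20e-10). About 35% of its exon length overlaps another gene, and the antisense transcript Hoxa11os differed too, by -0.82. Hoxa10 rose in both lineages as well, by 0.78 in Foxd1-ENLT1 and 1.92 in Six2-ENLT1, a difference of -1.13 (SE 0.10). For Hoxc10 the same values were 1.09, 2.15 and -1.07 (SE 0.12). The Foxd1 and Six2 effects at Hoxd11 were 0.34 and 1.86, and 10.8% of that gene's exon sequence overlaps a neighbour.

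Hoxd10 and Hoxd12, whose promoters are printed above, went opposite ways relative to each other. Hoxd10 (chromosome 2 from 74691924 to 74695105 on the plus strand) stood at 117, 106, 112 and 98.1 CPM in Foxd1 ENLWT and 88.9, 93.8, 82.4 and 93.3 CPM in Foxd1-ENLT1 libraries. In Six2-lineage cells it went from 36.6, 40 and 47.7 CPM to 139.9, 163 and 146 CPM. All 4 Foxd1-ENLT1 libraries lay below the 4 controls, although that effect did not pass the test (-0.27, adjusted p = 0.0732), and all 3 Six2-ENLT1 libraries lay well above theirs. The difference was -2.13 (SE 0.13, adjusted p = 3.28e-10). Hoxd12 (chromosome 2 from 74675013 to 74677705 on the plus strand) stood at 1.74, 3.36, 1.26 and 1.14 CPM in Foxd1 ENLWT and 128, 141, 162 and 158 CPM in Foxd1-ENLT1 libraries. In the Six2 sort it went from 6.13, 3.86 and 5.66 CPM to 62.4, 78.4 and 64.7 CPM. It was near the level of a few reads in Foxd1 control libraries and at 128 CPM or more in every mutant one, and it was the one Hox gene whose effect was higher in the Foxd1 lineage, by 2.52 (SE 0.42, adjusted p = 2.21e-05).

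For other Hox genes the estimates lay close together. Hoxa5 went from 6.66–10.2 to 65.1–79.4 CPM in the Foxd1 lineage and from 28.8–35.6 to 219.6–245 CPM in the Six2 lineage. The effects were 3.10 and 2.90, and the 95% interval of their difference ran from -0.18 to 0.58. Hoxa9, with effects of 1.80 and 2.04, had an interval from -0.55 to 0.07. Hoxc6 (-0.36, adjusted p = 0.0974) and Hoxc11 (-0.53, adjusted p = 0.131) did not pass, nor did Hoxa13, which held 0, 1, 0 and 0 reads in Foxd1 ENLWT and 1, 3, 3 and 4 in Foxd1-ENLT1 libraries (-2.73, adjusted p = 0.529). Hoxc4 (-0.57) passed but lost its call in 11 of 26 alternative fits.

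**Figure D2:**
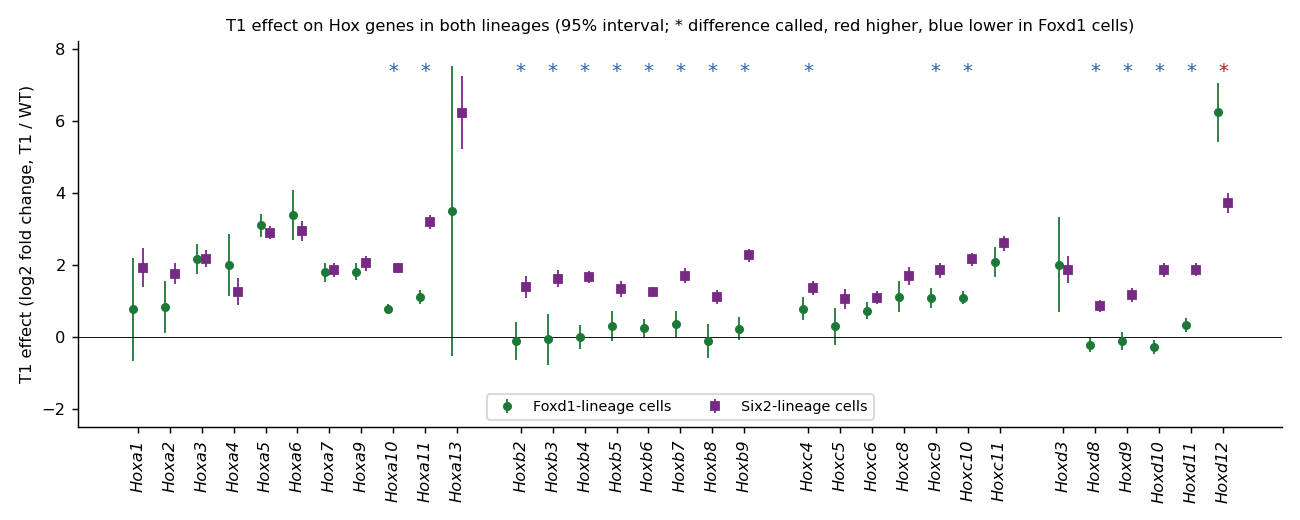
The 32 Hox genes that had counts in both lineages are ordered by cluster and paralog number on the x axis. The y axis gives the T1 effect (log2 fold change of T1 over WT) in Foxd1-lineage and Six2-lineage cells, with 95% intervals, and an asterisk marks genes whose effects differed. The Six2 effects are above 0 throughout, whereas the Foxd1 effects reach them over most of the Hoxa cluster, lie near 0 across the Hoxb cluster (median 0.12 against 1.5) and are highest at Hoxd12 (6.23).

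Of 20 cofactors and chromatin partners of Hox proteins and ENL, 2 were lower and none higher, against 7.63% and 8.25% of all genes tested. The 2 became 4 without the first Foxd1-ENLT1 library. Meis1, a homeodomain cofactor of Hox proteins, was at 287–343 CPM in Foxd1 ENLWT and 226–278 CPM in Foxd1-ENLT1 libraries and went from 12.8–15.4 to 31.4–39 CPM in the Six2 lineage, a difference of -1.56 with 18.3% of its exon length shared. Pbx3, another cofactor, differed by -0.53. Meis2, of the same family as Meis1, was not in this list and was higher, as given with the stromal factors below.

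Many nephron progenitor genes fell in Six2-ENLT1 cells and not in Foxd1-ENLT1 cells. Of 19 genes 9 were downregulated in the Six2 and 1, Gdnf, in the Foxd1 lineage, and 8 were higher and 3 lower. In bulk samples fewer cells of a type and less RNA per cell cannot be told apart, here and for the cell type lists that follow. Osr1, a factor of the intermediate mesoderm and early progenitors, stood at 34.7, 26.2, 40.3 and 17.4 CPM in Foxd1 ENLWT and 53.1, 51.4, 46.8 and 59.8 CPM in Foxd1-ENLT1 libraries. In the nephron lineage it went from 22.7, 22.6 and 33 CPM to 7.01, 8.66 and 7.70 CPM. It rose in one lineage and fell in the other without overlap between groups, with effects of 0.84 and -1.74, and the difference was 2.58 (SE 0.25, adjusted p = 2.05e-07). Six2, the self-renewal factor, was at 10.9–18 CPM in Foxd1 ENLWT and 10–20.2 CPM in Foxd1-ENLT1 libraries and fell from 179–237 to 72.1–90.7 CPM in the Six2 lineage, a difference of 1.31 (SE 0.24). Cited1, a mark of the least committed progenitors, fell from 27.4–40.5 to 4.53–6.70 CPM in the Six2 lineage and stood at 29.4–65.9 and 28.5–56.3 CPM in Foxd1 ENLWT and Foxd1-ENLT1 libraries, which overlap. Crym (2.19), Spock2 (1.67), Robo2 (1.02) and Capn6 (0.77) differed in the same direction. Traf1 (1.47) did too, but lost its call in 6 of 26 alternative fits. Pax2 (-0.70) had a lower effect in the Foxd1 lineage, as had Gdnf (-0.59) and Sall1 (-0.43), whose calls were lost in 9 and 11 alternatives. The 3 lower genes became 1 without any single one of 5 libraries, which were the second Foxd1 ENLWT, the second and the third Foxd1-ENLT1, the second Six2 ENLWT and the third Six2-ENLT1 library. The progenitor factors Wt1 (0.26, 95% interval -0.06 to 0.57) and Eya1 (0.75, 95% interval 0.14 to 1.36) did not pass.

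The genes of nephron commitment divided between effects of the stroma and of the nephron lineage. Of 22 genes 8 were upregulated in Foxd1-ENLT1 and 8 in Six2-ENLT1 cells, while 8 differences were higher and 2 lower in the Foxd1 lineage. Osr2, an odd-skipped relative of Osr1, stood at 8.98, 9.76, 11.3 and 9.09 CPM in Foxd1 ENLWT and 26.6, 41.4, 25.5 and 35.1 CPM in Foxd1-ENLT1 libraries. In the Six2 lineage it stood at 67.5, 64.3 and 60.4 CPM in ENLWT and 63.2, 60.3 and 56.8 CPM in T1 libraries. It was higher in every Foxd1-ENLT1 library than in any of their controls, whereas the Six2 groups overlap, and the difference was 1.83 (SE 0.19, adjusted p = 4.78e-07). Sox9, a factor of progenitor and repairing epithelium, likewise went from 47–73 to 131–139 CPM in the Foxd1 lineage and was at 99.3–102 and 89.4–96 CPM in Six2 ENLWT and Six2-ENLT1 libraries, a difference of 1.27 (SE 0.13). The effect at Bmp7, a survival signal of the cap mesenchyme, was 0.07 in the Foxd1 and -1.15 in the Six2 lineage. Cdh6 (0.71), Frzb (0.56), Emid1 (0.94), Clmp (0.67) and Bmper (1.01) also differed upward, and the Wnt effector Lef1 (-0.89) and the cyclin Ccnd1 (-0.50) downward, where 2 became 4 without the third Foxd1 ENLWT library. Wnt4, the inducer of epithelial conversion, rose in both lineages, by 0.67 and 0.83, with an interval of the difference from -0.50 to 0.16. So did Sfrp2, by 1.26 and 1.35, with an interval from -0.48 to 0.29.

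Podocyte genes fell in Six2-ENLT1 cells, and most did not in Foxd1-ENLT1 cells. Of 14 tested, 13 had a higher effect in the Foxd1 lineage and none a lower one, against 8.25% and 7.63% of all genes, with 10 downregulated in Six2-ENLT1 and 1, Clic5, in Foxd1-ENLT1 cells. The median effect was -0.08 in the Foxd1 and -2.82 in the Six2 lineage. Nphs1, which encodes nephrin of the slit diaphragm (chromosome 7 from 30458315 to 30487223 on the plus strand), stood at 31.3, 25, 24.3 and 20.5 CPM in Foxd1 ENLWT and 23.5, 21.9, 17.2 and 22 CPM in Foxd1-ENLT1 libraries. In Six2-lineage cells it went from 182, 197 and 174 CPM in ENLWT to 7.74, 7.84 and 9 CPM in T1 libraries. The Foxd1 groups overlap and the Six2 groups lie far apart, and the difference was 4.22 (SE 0.17, adjusted p = 1.28e-12), with 11.8% of its exon length shared. Podxl, a surface sialomucin (4.44), Ptpro, a phosphatase (3.26), the actin regulator Synpo (2.98), Magi2 (2.92), Clic5 (2.34) and Tdrd5 (3.97) followed. Plce1 reached its difference (1.71) mainly through the stroma, with effects of 1.26 and -0.45. Kirrel, another slit diaphragm gene, had a difference of 0.10 (95% interval -0.14 to 0.34) and did not pass. Summed, the genes of the list were at 3094–3952 CPM in Foxd1-ENLT1 and 1116–1241 CPM in Six2-ENLT1 libraries. Nphs1 made up 17.2 to 23.5 CPM of the Foxd1-ENLT1 sums. Which cells of the Foxd1 sort gave these reads was not tested, so the sum is not a measure of podocyte RNA there.

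Proximal tubule genes fell in Six2-ENLT1 cells and some of them in Foxd1-ENLT1 cells. Of 18 proximal tubule genes 17 were downregulated in Six2-ENLT1 and 7 in Foxd1-ENLT1 cells, with median effects of -1.90 and -0.97, and 9 had a higher effect in the Foxd1 lineage and none a lower one. The count of 9 was 13 without the first Foxd1 ENLWT library, 6 without the first Foxd1-ENLT1 library and 3 when the E14.5 libraries shared the fit. Aqp1, a water channel, stood at 33, 16.2, 24.7 and 14 CPM in Foxd1 ENLWT and 13.5, 16.3, 11.6 and 14.53 CPM in Foxd1-ENLT1 libraries. In the Six2 sort it went from 50.7, 57.1 and 36.8 CPM to 4.54, 5.69 and 4.07 CPM, and the difference was 2.68 (SE 0.31). Only the Six2 groups were apart. The endocytic receptor gene Cubn fell in both, with effects of -1.48 in the Foxd1 and -3.14 in the Six2 lineage, a difference of 1.66. Its partner Lrp2, with effects of -1.14 and -1.59, had an interval from -0.10 to 0.99. Hnf4a, the proximal tubule regulator, differed by 1.5, and the transporters Slc34a1, Slc22a6 and Slc3a1 by 1.47, 1.71 and 1.15. The list summed to 137–243 CPM in Foxd1-ENLT1 and 523–599 CPM in Six2-ENLT1 libraries, and the part of tubule RNA in the Foxd1 sort in these differences was not tested. Among 13 genes of the loop and distal tubule 15.4% passed, near the 15.9% of all genes tested. They were Clcn5 (0.68), a chloride transporter gene that the proximal tubule also uses, and Mecom (-0.60). Umod, the loop marker, had a difference of -0.13 with an interval from -1.42 to 1.15.

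**Figure D3:**
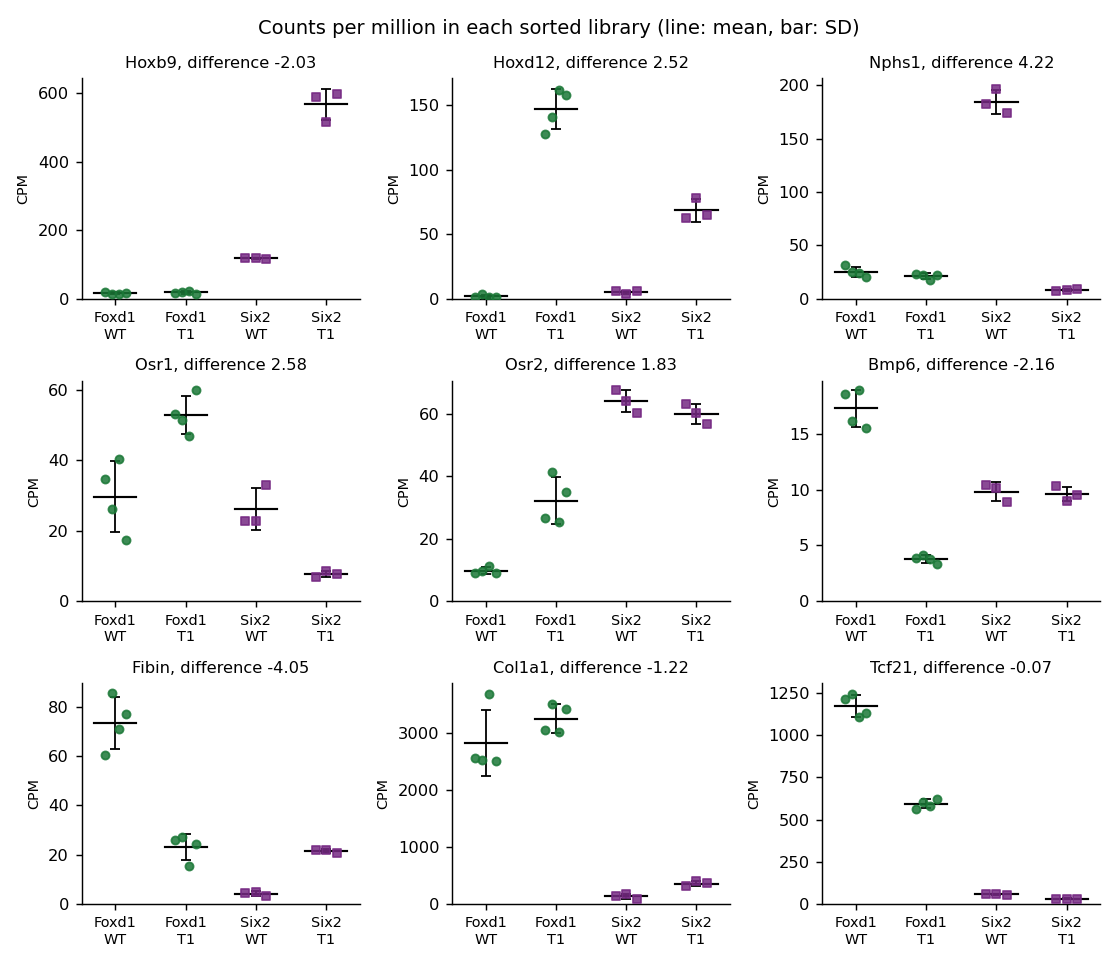
Expression (CPM) of 9 genes in each of the 14 libraries, with the group mean as a line and the SD as a bar (n = 4 per Foxd1 group, n = 3 per Six2 group). Hoxb9 separates T1 from WT in the Six2 lineage alone, Osr2, Bmp6 and Hoxd12 change most in the Foxd1 lineage, Osr1 and Fibin move in opposite directions, and Tcf21 falls in both.

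Stromal transcription factors went the other way from podocyte genes: 11 of 17 had a lower effect in the Foxd1 lineage and 3 a higher one, with a median effect of -0.27 in the Foxd1 and 0.69 in the Six2 lineage. Snai2, a mesenchymal factor, stood at 172, 164, 167 and 169 CPM in Foxd1 ENLWT and 97.8, 84.8, 91 and 93.9 CPM in Foxd1-ENLT1 libraries. In the nephron lineage it went from 6.65, 8.02 and 9.50 CPM to 15.5, 14 and 11.9 CPM. It fell in one lineage and rose in the other without overlap, and the difference was -1.65 (SE 0.15, adjusted p = 6.29e-08). Tbx18 (-2.94), Hic1 (-1.36), Gata6 (-1.55), Ebf1 (-1.27), Twist1 (-1.18), Tshz3 (-1.05), Zeb2 (-0.70) and Nr2f2 (-0.42) were lower as well.

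Foxd1 itself was the main exception. It stood at 59.4, 73.2, 67.5 and 80.3 CPM in Foxd1 ENLWT and 66.6, 78.9, 74.5 and 93.6 CPM in Foxd1-ENLT1 libraries. In the Six2 lineage it went from 35.7, 35.9 and 29.8 CPM to 8.47, 8.96 and 9.60 CPM, so that the Foxd1 groups overlap and the Six2 groups do not, and the difference was 2.08 (SE 0.15, adjusted p = 4.06e-09). All Foxd1-lineage libraries lack 1 intact copy of the gene, and Foxd1 is also expressed in podocytes. Meis2 (0.83) rose in the stroma, by 0.85, against 0.01 in the Six2 lineage. Tcf21, a factor of stroma and podocytes, fell in both: from 1107–1247 to 562–624 CPM in the Foxd1 lineage and from 50.8–58.2 to 27–30.9 CPM in the Six2 lineage, with an interval of the difference from -0.28 to 0.14.

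Of 24 matrix genes 13 were upregulated in Six2-ENLT1 and 3 in Foxd1-ENLT1 cells. The T1 effect was lower in the Foxd1 lineage at 13 and higher at 4, and the median effect was 0.09 in the Foxd1 and 0.65 in the Six2 lineage. Col1a1, a chain of fibrillar collagen, stood at 2565, 2519.5, 3695 and 2508 CPM in Foxd1 ENLWT and 3054, 3512, 3019 and 3429 CPM in Foxd1-ENLT1 libraries. In Six2-lineage cells it went from 140.3, 169 and 86.3 CPM to 313, 392 and 361 CPM. The Foxd1 groups overlap, the Six2 groups do not, and the difference was -1.22 (SE 0.23). Eln, which encodes elastin, went from 16.6–23.9 to 75.9–90.1 CPM in the Six2 lineage and was at 98.8–145.4 and 126–184 CPM in the Foxd1 groups, a difference of -1.78. Col6a3 (-1.55), Col14a1 (-1.57), Fbln5 (-1.45), Col6a1 (-1.35), Ecm1 (-1.35), Dcn (-1.28), Col3a1 (-1.11) and Gpc3 (-1.02) followed. Tnc (1.14), Vcan (1.15), Mfap4 (0.93) and Col1a2 (0.66) went the other way, so that the chains of type I collagen differed in opposite directions: Col1a2 had an effect of 0.11 in the Foxd1 and -0.56 in the Six2 lineage. Fn1, which encodes fibronectin, rose in both, by 0.74 and 1.03 (-0.29, adjusted p = 0.0702). The list's sum did not follow the count of genes. It was at 7943–8341 CPM in Six2 ENLWT and 8139–8612 CPM in Six2-ENLT1 libraries, and at 14613–19194 and 15767–18503 CPM in the Foxd1 groups, overlapping in both lineages.

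Of 24 secreted and surface signals of the stroma 15 were lower and 2 higher. Their summed level went the other way from that count, from 5181–5704 CPM in Foxd1 ENLWT to 6121–6527 CPM in Foxd1-ENLT1 libraries without overlap, with overlapping Six2 groups at 3060–3327 and 2757–3292 CPM. The sum includes Nts, which alone rose from 186–284 to 1420.0–1545 CPM in the Foxd1 lineage. The rise of the sum therefore does not describe the other members. Pdgfra, a receptor of mesenchymal cells, was at 354–424 and 316–387 CPM in Foxd1 ENLWT and Foxd1-ENLT1 libraries and went from 8.68–23 to 43.8–47.8 CPM in the Six2 lineage, a difference of -1.55. Agtr2, an angiotensin receptor, fell in the Foxd1 lineage (-1.15) and rose in the Six2 lineage (1.06), a difference of -2.21. Ntn1, a guidance cue that the paper uses to mark capsular stroma, had effects of -1.74 and -0.48 and a difference of -1.26. Igf1 (-1.72), Penk (-1.63), Dlk1 (-1.51), Smoc2 (-1.42), Wnt5a (-0.86) and Fat4 (-0.57), the cadherin through which stroma signals to progenitors, were lower too. These differences do not say which lineage moved, and the paper detected no change of Fat4 transcripts in Foxd1-ENLT1 kidneys. The neuropeptide gene Nts was strongly upregulated in both, from 186–284 to 1420.0–1545 CPM in the Foxd1 lineage and from 0.424–1.35 to 8.81–10.6 CPM in the Six2 lineage, with a difference of -0.89 that DESeq2, limma voom, the fit with E14.5 libraries and the fit without the third Six2 ENLWT library did not call (range over alternatives -2.44 to -0.57). The exceptions were the chemokine gene Cxcl12 (1.17), which fell from 378–412 to 156–174 CPM in the Six2 lineage and stood at 372–420.1 and 337–378 CPM in the Foxd1 groups, and Aldh1a2 (0.77), which makes retinoic acid.

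Of 15 pericyte and mural genes 7 were lower and 2 higher, with a median difference of -1.16. Myh11, the smooth muscle myosin, had an effect of -1.01 in the Foxd1 and 1.06 in the Six2 lineage, a difference of -2.07. Cspg4, the pericyte proteoglycan NG2, was at 136–141 and 104.6–126 CPM in the Foxd1 groups and went from 53.1–66 to 127–141 CPM in the Six2 lineage, a difference of -1.42. Kcnj8 (-1.83), Abcc9 (-1.70), Cnn1 (-1.71), Acta2 (-1.35) and Pdgfrb (-1.16) were lower as well. Des, which encodes desmin, rose from 41.9–47.9 to 59.7–88.2 CPM in the Foxd1 lineage and fell from 51.5–60.2 to 22.4–26.2 CPM in the Six2 lineage, a difference of 1.83 (SE 0.15). Ren1, which encodes renin, dropped from 168–461 to 10.4–31.6 CPM in Foxd1-ENLT1 libraries. With Six2 groups at 3.80–16.7 and 0.678–4.28 CPM the difference was -1.74 and did not pass (adjusted p = 0.152).

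**Figure D4:**
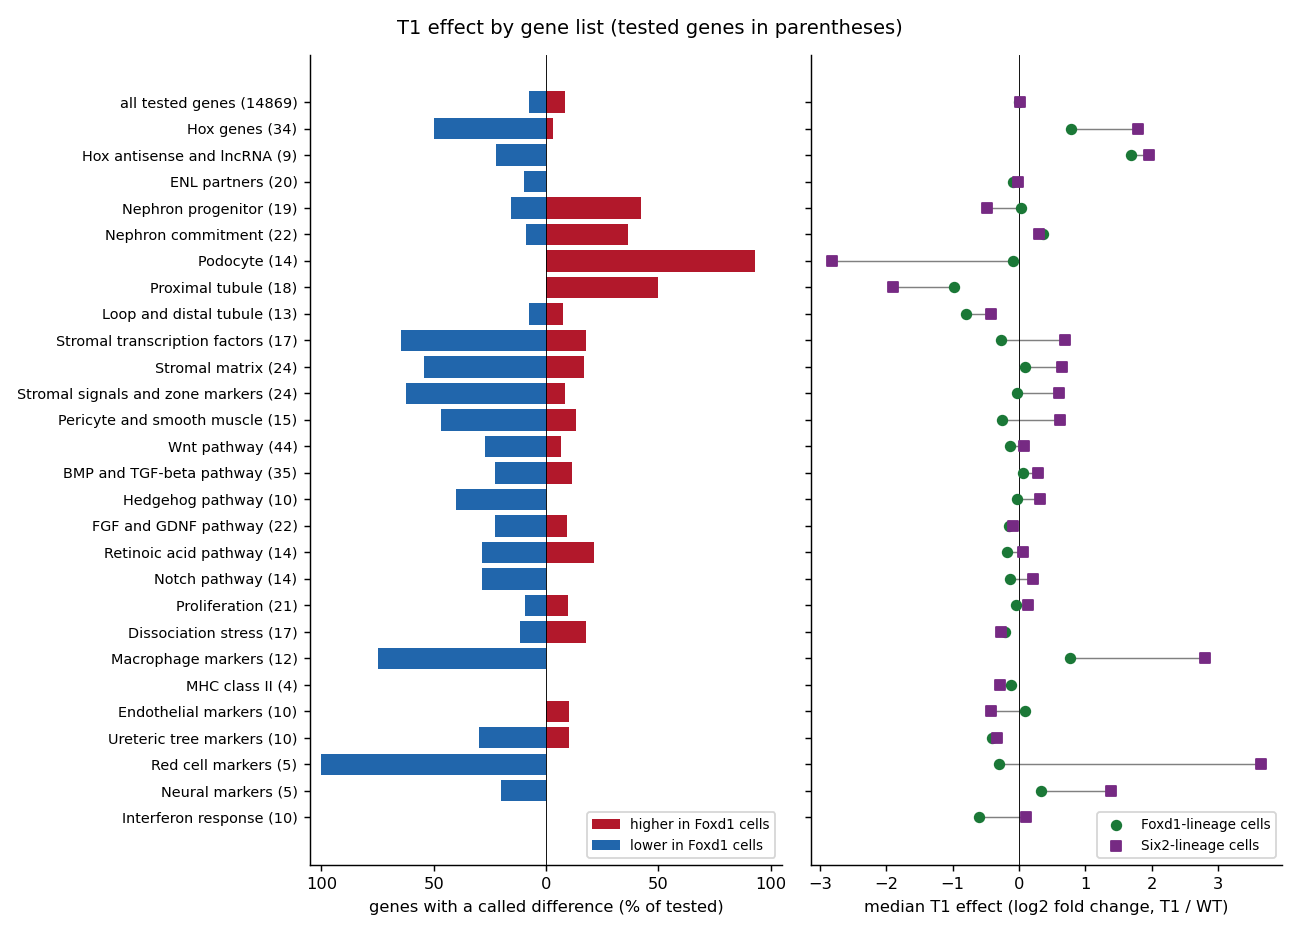
For each gene list, the left panel gives the percent of its tested genes whose T1 effect was higher or lower in the Foxd1 lineage, and the right panel the median T1 effect (log2 fold change) in each lineage. Podocyte and proximal tubule genes stand on the higher side with 13 of 14 and 9 of 18, and Hox, stromal, pericyte, macrophage and red cell genes on the lower side.

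The signalling pathways that join stroma and progenitors were read by role. In the Wnt pathway 12 of 44 genes were lower and 3 higher, against 7.63% and 8.25% of all genes tested. Among 7 ligands Wnt5a (-0.86) and Wnt11 (-0.98) were lower. Among 16 receptors Fzd5 was higher (1.1, 17.8% of its exon length shared) and Fzd1 (-0.61), Fzd7 (-0.58) and Fzd10 (-1.38) lower. Of 11 secreted modulators 4 were lower, led by Sfrp1 (-0.98) and Dkk2 (-0.78). Of the 10 target genes Nkd2 (-1.35), Lef1 and Nkd1 (-0.56) were lower, and Axin2, the feedback target most often read, had a difference of 0.08 (95% interval -0.28 to 0.44).

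In the BMP and TGF-beta family 8 of 35 genes were lower and 4 higher, against 7.63% and 8.25% of all genes tested. Bmp6 (chromosome 13 from 38345107 to 38500302 on the plus strand) stood at 18.53, 16.2, 18.9 and 15.5 CPM in Foxd1 ENLWT and 3.85, 4.17, 3.74 and 3.38 CPM in Foxd1-ENLT1 libraries. In the Six2 sort it stood at 10.4, 10.1 and 8.86 CPM in ENLWT and 10.3, 9.02 and 9.53 CPM in T1 libraries. The ligand fell in the stroma, the Six2 groups overlap, and the difference was -2.16 (SE 0.23, adjusted p = 4.55e-07). Bmp2 instead went from 43.6–55.6 to 123–153 CPM in the Six2 lineage, with Foxd1 groups at 5.19–8.69 and 5.62–11.1 CPM and a difference of -1.14. Gdf10 (-1.93) and Tgfb3 (-0.51) were lower, and Bmp7 (1.23) higher. The coreceptor gene Tgfbr3 (1.64) was higher, with an effect of -1.75 in the Six2 lineage, while the receptor gene Bmpr1b rose in both, by 1.0 and 1.0 (95% interval of the difference -0.41 to 0.41). Among the targets Id1 (-0.80), Id2 (-0.59) and Smad6 (-0.60) were lower and Id4 (0.58) higher.

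All 4 Hedgehog genes that passed, of 10, were lower: Hhip (-1.21), Gli2 (-0.57), Boc (-0.56) and Ptch1 (-0.50). In the FGF and GDNF pathways Fgf1 was at 3.36–10.4 and 9.38–11.9 CPM in the Foxd1 groups and fell from 45.7–57.4 to 12.6–14.1 CPM in the Six2 lineage, a difference of 2.37. Gfra1, the GDNF coreceptor, was higher (1.71), and 5 of 22 genes were lower (3 without the third Six2-ENLT1 library), among them Fgf2 (-1.49), Fgfr3 (-1.18) and Spry1 (-0.60, 24.4% of its exon length shared). Crabp1, a cytosolic retinoic acid binding protein, stood at 7.82, 7.93, 9.23 and 7.57 CPM in Foxd1 ENLWT and 40.4, 41, 41.6 and 49.7 CPM in Foxd1-ENLT1 libraries. In the nephron lineage it stood at 4.45, 6.95 and 5.61 CPM and 8.72, 7.89 and 10.8 CPM, so mutants exceeded controls in both, and the difference was 1.73 (SE 0.25). Of the 14 retinoid genes 2 others were higher, Aldh1a2 and, with its call lost in 12 of 26 alternative fits, Crabp2 (0.62). The retinol importer Stra6 (-0.93) and the receptors Rxra (-0.68), Rarg (-0.81) and Rarb (-0.57, 38.4% of its exon length shared) were lower. Of 14 Notch genes 4 were lower, and 2 without the third Foxd1-ENLT1, the second Six2 ENLWT or the third Six2 ENLWT library. Heyl (-0.63) kept its call in all 26 alternative fits, while Hey2 (-1.09), Notch1 (-0.42) and Notch2 (-0.34) lost theirs in 6, 9 and 6. Of 21 proliferation genes 19.0% passed, near the 15.9% of all genes tested. The inhibitors Cdkn1c (1.66) and Cdkn1a (1.16) were higher and Ccnb1 (-0.57) and Cdk1 (-0.45) lower. Without the first Foxd1 ENLWT library 4 genes were lower, and without the third Six2 ENLWT library 1. Mki67 had a difference of -0.20 (95% interval -0.48 to 0.07).

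The largest differences among genes expressed in both lineages lay with podocyte genes on one side and with genes gained in the Six2 lineage on the other. Upward, R3hdml (chromosome 2 from 163492318 to 163502612 on the plus strand) led. It was at 36.6–58.5 and 25.8–47.9 CPM in the Foxd1 groups and fell from 40.2–53.2 to 0.827–1.25 CPM in the Six2 lineage, a difference of 5.14 (SE 0.25). Others that followed were Ntng2 (4.95, 14% of its exon length shared), Podxl, 6530402F18Rik (4.22), Nphs1, Thsd7a (4.14), Cyp1a1 (4.05), Tdrd5 and Bdnf (3.83). Cyp1a1, a target of the aryl hydrocarbon receptor, rose in the stroma, as did Bdnf. Cyp1a1 held 1, 0, 1 and 2 reads in Foxd1 ENLWT and 8, 6, 13 and 8 reads in Foxd1-ENLT1 libraries (difference 4.05, 95% interval 2.15 to 5.95). In the Six2 lineage it fell from 5.86–10.2 to 3.44–5.18 CPM.

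Downward, Gfra2, a receptor subunit for neurturin (chromosome 14 from 70890120 to 70979838 on the plus strand), stood at 14.2, 14.6, 17.2 and 16.7 CPM in Foxd1 ENLWT and 16.6, 13.2, 13.9 and 9.80 CPM in Foxd1-ENLT1 libraries. In Six2-lineage cells it went from 1.65, 2.18 and 2.25 CPM to 33.9, 42.6 and 44.7 CPM, a difference of -4.55 (SE 0.24, adjusted p = 2.73e-11). Adamts19, a metalloprotease, fell from 5.45–6.82 to 2.62–4.62 CPM in the Foxd1 lineage and rose from 5.23–6.47 to 53–57.1 CPM in the Six2 lineage, a difference of -4.13. Cnmd, which encodes the cartilage protein chondromodulin, rose in both, by 2.11 and 6.27, from 0.522–0.665 to 42.4–47.1 CPM in the Six2 lineage. Scara5 (-4.45), Lypd1 (-4.41) and Fibin (-4.05) completed the expressed genes of the group, and the other members were Lyz2 and 3 globin genes, which are markers of blood cells. In Scara5, the third Foxd1 ENLWT library stood at 31.0 CPM, with the other 3 at 3.79–8.11 CPM, and Scara5 kept its call in the fit without it.

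Genes near silence in one lineage are given in reads. The low-count filter asked for 2.91 CPM in 3 libraries. Sez6l2, Grp, Fmo6 and Ptchd4 met it only through the Foxd1-ENLT1 libraries, and Cdh8 and March4 only through the Six2-ENLT1 libraries. These genes were thus tested because of the group in which they are high, and their calls are no independent support. Sez6l2 held 7, 5, 7 and 7 reads in Foxd1 ENLWT and 98, 101, 100 and 116 in Foxd1-ENLT1 libraries, and 47, 59 and 55 reads in Six2 ENLWT and 77, 66 and 40 in Six2-ENLT1 libraries, which are far deeper. The gene rose in the stroma, the Six2 groups overlap, and it had a difference of 3.99 (SE 0.36). Grp, a gastrin-releasing peptide gene, held 1, 1, 0 and 0 reads in Foxd1 ENLWT and 10, 8, 9 and 10 in Foxd1-ENLT1 libraries, against 10, 4 and 13 and 22, 3 and 8 in the Six2 groups (4.11, 95% interval 1.00 to 7.22). Fmo6 went from 0, 0, 1 and 0 to 14, 15, 16 and 20 reads in the stroma (5.19, 95% interval 1.33 to 9.04), and Ptchd4 from 2, 0, 1 and 0 to 11, 16, 16 and 21 (5.03, 95% interval 2.42 to 7.63). Cdh8, a neural cadherin, held 2, 2, 6 and 0 and 3, 2, 0 and 1 reads in the Foxd1 groups and went from 41, 39 and 58 to 1072, 881 and 703 in the Six2 lineage (-4.81). Cd48, a leukocyte gene, held 10, 12, 7 and 8 and 12, 10, 6 and 11 reads in the Foxd1 groups and went from 4, 0 and 0 to 55, 59 and 28 in the Six2 lineage (-4.64). March4 held 1, 0, 0 and 1 and 0, 0, 0 and 0 reads in the Foxd1 groups, which gives no usable fold, and went from 34, 41 and 48 to 497, 475 and 430 in the Six2 lineage. Gm5483 and Stfa2, also called lower, lost their calls in 12 of 25 and 13 of 24 alternative fits that returned a value. Grp, Fmo6 and March4 lost theirs in 2 of 21, 1 of 25 and 3 of 24.

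A shared response existed beside the differences. Upregulated in both lineages were 186 genes, which are 37.3% of those upregulated in Foxd1-ENLT1 and 17.4% of those in Six2-ENLT1 cells, and at 126 of them the effects did not differ detectably. Downregulated in both were 74 genes (24.6% and 7.91%), 58 without a detectable difference. Among the shared genes measured most precisely, Pcsk5, a proprotein convertase, rose in both but more in the Foxd1 lineage, by 1.13 and 0.64 (difference 0.48, adjusted p = 0.00586). Cyth3 fell in both, with effects of -0.71 and -0.83 and an interval from -0.10 to 0.34, and Pla2g7 had effects of -0.69 and -1.0. Ccn1, a matricellular protein gene, had effects of -0.97 and -0.62 (-0.35, adjusted p = 0.0629). Frem1, of the basement membrane, fell in both but less in the Foxd1 lineage, with effects of -0.76 and -1.85.

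Opposite responses passed at 102 genes. Fibin, which encodes a secreted fin bud factor (chromosome 2 from 110360917 to 110363183 on the minus strand), stood at 60.5, 85.4, 70.9 and 77.3 CPM in Foxd1 ENLWT and 25.8, 27.1, 15.3 and 24.3 CPM in Foxd1-ENLT1 libraries. In the Six2 sort it went from 4.22, 4.93 and 3.09 CPM to 21.7, 21.9 and 20.5 CPM, so that it fell in one lineage and rose in the other without overlap of groups, and the difference was -4.05 (SE 0.22, adjusted p = 4.53e-11). Prss35, a serine protease gene, went from 18.8, 13.1, 25.6 and 7.95 CPM to 97.4, 56.6, 65.1 and 72 CPM in the Foxd1 lineage and from 2.67, 2.59 and 3.53 CPM to 0.645, 0.873 and 1.28 CPM in the Six2 lineage, a difference of 3.82 (SE 0.37). Bdnf, a neurotrophin gene with 14.4% of its exon length shared, went from 0.579–2.14 to 5.91–9.24 CPM in the Foxd1 lineage and from 10.9–24.4 to 5.42–6.22 CPM in the Six2 lineage. Pnoc, which encodes the nociceptin precursor and held 2, 1, 1 and 2 reads in Foxd1 ENLWT libraries (4.99, 95% interval 3.38 to 6.60), and Cntn6 (2.76) also rose in the stroma and fell in the nephron lineage. Mc2r (-3.68), AC140413.1 (-3.19), Scn7a (-3.11) and Abcd2 (-3.07) did the reverse. Pnoc was under a mean of 1 CPM in 1 lineage and was tested because of the group in which it is high. Its call is no independent support.

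Markers of other cells moved with some of these groups. Of 12 macrophage genes 9 had a lower effect in the Foxd1 lineage and none a higher one, and 7 were upregulated in Foxd1-ENLT1 and 10 in Six2-ENLT1 cells. The count of 9 was 4 after thinning to equal reads and 5 when the E14.5 libraries shared the fit. The macrophage genes summed to 167–427 CPM in Foxd1 ENLWT and 360–503 CPM in Foxd1-ENLT1 libraries, and to 36.3–39.0 and 104–120 CPM in the Six2 groups. All 5 red cell genes were lower. They summed to 149–265 and 134–228 CPM in the Foxd1 groups, but to 96.6–190 CPM in Six2 ENLWT and 1417–2086 CPM in Six2-ENLT1 libraries. Hba-a1, an alpha globin gene, for example stood at 79.9, 55.6 and 45.5 CPM in Six2 ENLWT and 628, 885 and 627 CPM in Six2-ENLT1 libraries, a difference of -3.92. None of the globin and macrophage markers was at 0, and their part in the rise of stromal, matrix and pericyte genes in Six2-ENLT1 cells was not tested. Pericyte genes summed to 483–524 CPM in Six2-ENLT1 and 2146–2390 CPM in Foxd1-ENLT1 libraries. Endothelial markers went the other way in the Six2 lineage (114–128 CPM in controls, 72.0–92.7 CPM in mutants) and overlapped in the Foxd1 lineage, and 1 of 10 passed, Pecam1 (0.99). Of 10 ureteric genes 3 were lower and 1 higher. Aqp2, the collecting duct water channel, fell from 27.3–47.2 to 2.09–3.46 CPM in the Foxd1 lineage and from 2.43–4.37 to 0.644–1.38 CPM in the Six2 lineage, a difference of -1.93. Of 5 neural genes 1 was lower. None of 10 interferon genes passed the edgeR test, with 5 at an unadjusted p under 0.05, 1 called by DESeq2 and 0 by limma voom, but 4 were lower without the second Six2 ENLWT library. None of 4 class II antigen genes passed it either, with 1 at an unadjusted p under 0.05 and 0 called by the other tools. Of 17 stress genes 3 were higher, Hspa1a (1.92), Ier3 (1.34) and Hspa1b (1.23), and 2 lower, Fosb (-0.87) and Fos (-0.58), of which Fos lost its call in 7 of 26 alternative fits. Summed, these genes of dissociation stress were lower in mutants of both lineages without overlap, at 10460–11739 and 7658–9467 CPM in the Foxd1 groups and 4157–5180 and 3343–3854 CPM in the Six2 groups, and their part in the other results was not tested.

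**Figure D5:**
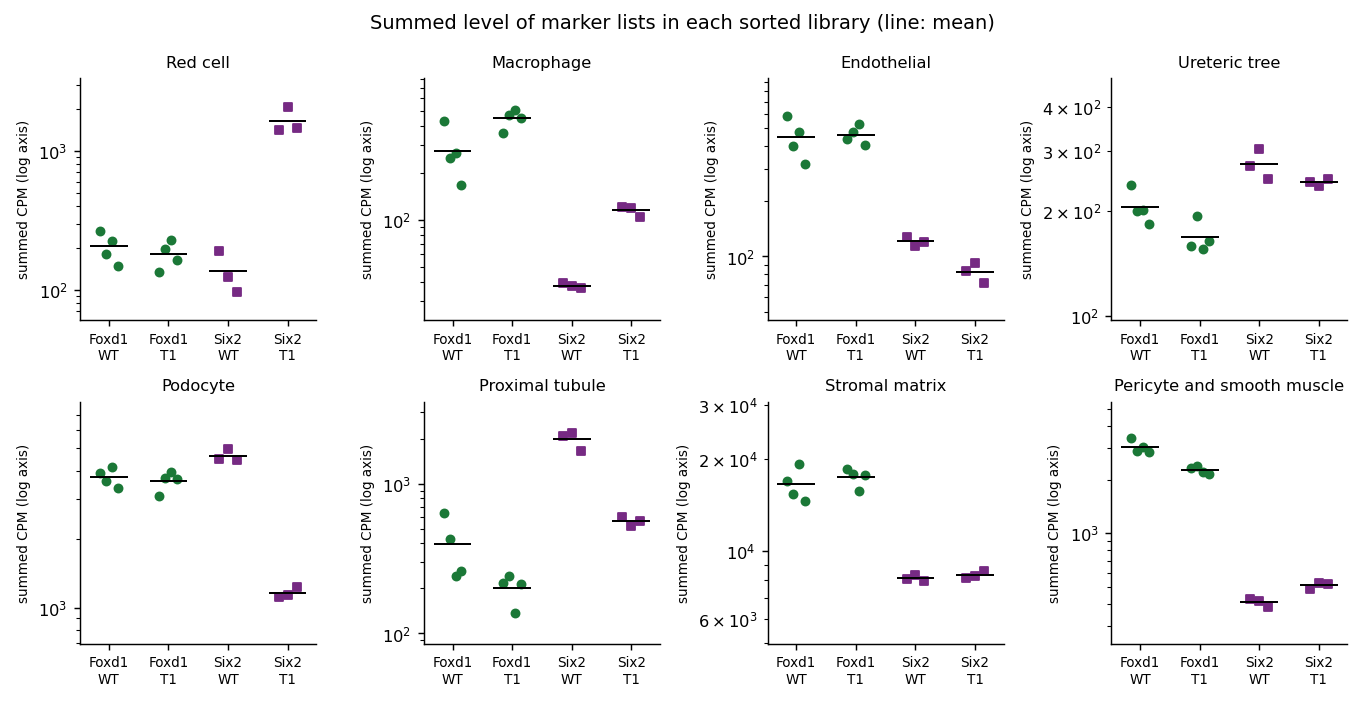
Summed CPM of 8 marker lists in each library on a log axis, by lineage and genotype. Red cell markers are apart in Six2-ENLT1 libraries (1417–2086 CPM against 96.6–190 CPM in their controls), podocyte markers fall there alone (1116–1241 CPM), and macrophage markers are higher in T1 than WT libraries of the Six2 lineage without overlap and overlap in the Foxd1 lineage (167–427 and 360–503 CPM).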

How the data were processed

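Sorted tdT+ cells of E18.5 kidneys were profiled by polyA RNA-seq with an ultra-low-input kit. The deposited values are raw gene counts: the authors aligned reads to mm10 with HISAT2 and counted them with HTSeq without regard to strand. The annotation release is not given in the sources used here. The Foxd1 and Six2 count tables were joined on Ensembl ID, which left 54417 genes, with 1054 and 335 found in only the first and only the second table. Symbols and GRCm38 coordinates came from GENCODE.

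Groups were taken from the genotype labels. A single model with 4 groups was fitted with edgeR 4.0.16 in R 4.3.3 (TMM scaling, quasi-likelihood F-test, Benjamini-Hochberg adjustment over 14869 genes with at least 10 counts at the median depth, 2.91 CPM, in 3 libraries and at least 15 in all). The contrast (Foxd1 T1 minus Foxd1 WT) minus (Six2 T1 minus Six2 WT) gave the difference, called at an adjusted p under 0.05. Effects within a lineage also needed a fold change over 1.5. Levels are CPM over the total of counted reads of a library multiplied by its TMM factor. SE and 95% intervals are Wald values from the same fit and cover the spread between libraries. Shared exon length is named where it exceeds 10%. In simulated counts for the 14869 genes, differences were placed only in Foxd1-ENLT1 and only at genes with a mean of at least 1 CPM in each lineage. The test recovered 76% of the 2-fold and 95% of the 4-fold ones. These shares do not cover genes near silence in 1 lineage. Within groups, log CPM correlated at 0.982 to 0.997 across genes and no pair of libraries agreed within sampling noise.

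Lists of genes, members and tests were chosen with earlier results of these data known, and no list is an independent test. The genes named are Mllt1, the list genes that were called and list members described for their role, the 10 with the largest difference in each direction at a mean of 1 CPM or more in each lineage (leaving out Xist, Tsix and chromosome Y), the 5 in each direction under that mean in 1 lineage, the 5 in each direction called in both lineages with the narrowest interval, and the 10 opposite ones with the largest smaller effect. Hox genes, podocyte genes and other members named without a call were chosen for their role. Some genes that these rules would name are not reported here. Alternatives were DESeq2 1.42.0, limma voom 3.58.1, other scalings and filters, thinning, a replicate block, a Y-linked covariate, the E14.5 libraries in the fit and leaving out each library.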

Additional observations from a re-analysis of the deposited data

Results flagged for a closer look

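The T1 effect differed between lineages by a test of the difference itself at 1226 genes upward and 1135 downward. Among genes called in opposite directions, the difference was 4.99 at Pnoc, 3.83 at Bdnf, 3.82 at Prss35 and 2.76 at Cntn6, which rose in Foxd1-ENLT1 cells, and -4.05 at Fibin, -3.68 at Mc2r, -3.19 at AC140413.1, -3.11 at Scn7a and -3.07 at Abcd2, which fell there. Pnoc was under a mean of 1 CPM in 1 lineage, and its call is no independent support. Gene levels and library measures were examined in 112 groups of 4 Foxd1 libraries, and the Six2 groups were not examined. At the limit used, chance alone flags about 1 in 20 groups. A single library stood apart at 5, counted after genes not reported here were left out, so these rates cannot be compared. The third Foxd1-ENLT1 library held 42.3 CPM of Thsd7a, with the others at 29.9 to 31.2 CPM. The first Foxd1-ENLT1 library held 9.24 CPM of Bdnf against 5.91 to 6.42 CPM, and 195 CPM of Frem1 against 154 to 161 CPM. The third Foxd1 ENLWT library held 31.0 CPM of Scara5 against 3.79 to 8.11 CPM, and 0.419 CPM of Fmo6, which is 1 read, with the others at 0.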

How the results depend on the processing

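The counts of genes with a higher and a lower effect in the Foxd1 lineage stood within 1.5 times of 1226 and 1135 in all 26 alternative fits except 1: thinning every library to 2555949 reads left 738 and 680, fewer reads by construction, and kept 57.6% of the calls, against 78.9% to 99.8% under the other fits. Requiring more than 1.5 fold in addition left 896 and 794. Leaving out 1 library at a time gave 948 to 1288 higher and 961 to 1218 lower. The Foxd1 lineage alone then had 393 to 509 genes up and 248 to 330 down, and the Six2 lineage 1038 to 1140 up and 865 to 1002 down. Without the fold threshold these were 800 and 663 in the Foxd1 and 2002 and 1983 in the Six2 lineage, while the Six2 upregulated genes numbered 1618 without a filter on low counts and 687 after thinning. DESeq2 gave 1312 and 1362, and limma voom 1159 and 1027. Deviations of same-numbered libraries correlated at -0.173 to 0.229. So few values cannot tell whether replicate numbers pair the samples, which were treated as unpaired. A fit with the replicate number as a block gave 1205 and 1061. Of 221 named genes that were called, 153 kept the call in every alternative and none reversed. In the shallower Foxd1 libraries 61 tested genes had no count at all, and none of the 61 was called. The part of depth in this was not tested.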
